A study of Homo sapiens with 6 samples.

Results

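The AP-1 transcription factor is built from proteins of the FOS and JUN families, and the 7 genes that encode them (FOS, FOSB, FOSL1, FOSL2, JUN, JUNB and JUND) were followed here from nascent transcription to RNA level. They were found in the files by gene symbol, after the transcript identifiers of the count files had been matched to GENCODE names. Each gene was represented by 1 transcription unit (TU), so the family made up 7 of the 42371 annotated transcripts listed, and all 7 had counts in both assays. Of these, 6 passed the expression thresholds used for the test below, and FOSB did not.

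All 6 libraries came from untreated K562 cells, a chronic myelogenous leukemia cell line with erythroid features, grown in medium with fetal bovine serum. For RNA-seq, 4 libraries of total RNA were made after depletion of ribosomal RNA, and a pair of PRO-seq libraries mapped RNA polymerases engaged in transcription at the time of the run-on. All cells were from the same source, so p-values measure the spread between these libraries, which may be technical. There was no treatment, time course or second cell line, and the one contrast is between the assays. The study reads the rate of RNA production from PRO-seq and the amount of RNA from RNA-seq. If production and decay are in balance, their ratio then estimates a relative RNA half-life. As a limit, the study names that PRO-seq measures polymerase occupancy, which depends on elongation rate as well. Its main results use published libraries, which it found to give less variable half-life estimates, closer to published ones, than the libraries read here.

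FOS and JUN proteins are basic leucine zipper factors that bind DNA as dimers. JUN proteins pair with each other or with FOS proteins, whereas FOS proteins need a JUN partner, and the dimers recognise the TGACTCA element or the related cAMP response element TGACGTCA. FOS, FOSB, JUN and JUNB are classical immediate early genes, switched on within minutes of serum or growth factor signalling through pre-existing factors such as SRF and the ELK proteins. Their messages are known for rapid decay, which in FOS is directed in part by AU-rich elements of the 3′UTR, where copies of the pentamer ATTTA are read by proteins such as ZFP36. JUND is known for a more constant expression, and FOSL1 and FOSL2 lack the strong activation domain of FOS and FOSB.

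The 3 JUN genes have no introns. In GENCODE on GRCh37, JUN (ENSG00000177606) spans chr1:59246463-59249719 on the minus strand with 1 exon of 3257 bp. JUNB (ENSG00000171223) lies at chr19:12902300-12904129 on the plus strand with an exon of 1830 bp, and JUND (ENSG00000130522) at chr19:18390504-18392432 on the minus strand with an exon of 1929 bp. The FOS genes are spliced. FOS (ENSG00000170345, chr14:75745531-75748933, plus strand) has 4 exons of 2104 bp in all, FOSB (ENSG00000125740, chr19:45971253-45978436, plus strand) 3 exons of 3667 bp, FOSL1 (ENSG00000175592, chr11:65659520-65667890, minus strand) 2 exons of 1427 bp and FOSL2 (ENSG00000075426, chr2:28615669-28640179, plus strand) 4 exons of 5829 bp. The counted transcript was the canonical one for FOS and for the 3 JUN genes. For the other FOS genes it held part of the canonical exon bases, 97.1% in FOSB, 82.0% in FOSL1 and 85.6% in FOSL2. With 1000 bp taken off the TU for PRO-seq counting, little was left of the short genes, namely 830 bp in JUNB, 929 bp in JUND, 2257 bp in JUN and 2403 bp in FOS. The region left of JUNB lay wholly inside the counted TU of HOOK2, and that of FOSB inside ERCC1, both on the opposite strand. Whether the authors counted by strand is not stated in what was read here, and the part of these neighbours in the PRO-seq counts was not tested. No exon base of any member lay in an exon of another counted mRNA.

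The 3′UTR sequences of the members differ in their AU-rich elements. Windows of 30 bases are shown for 4 genes that stand at both ends of the RNA-seq/PRO-seq order described below. Each window was picked as the stretch of its 3′UTR with the most TTATTTATT and then the most ATTTA. Its motif content therefore follows from that choice. FOS (chr14:75748752-75748781, plus strand) and FOSL1 (chr11:65659755-65659784, minus strand) had the lowest ratios among the members tested, and FOSL2 (chr2:28639211-28639240, plus strand) and JUND (chr19:18390820-18390849, minus strand) the highest. Each is the gene's strand on GRCh37, 5′ to 3′, with ATTTA in capitals:
FOS: acgttttattgtgtttttaATTTATTTAtt
FOSL1: agcctccacagcgagggcagctgctATTTA
FOSL2: aagaaattgacATTTAttttattATTTAtt
JUND: agaacagagtgttcgattctgccctATTTA
The FOS and FOSL2 windows each carry 2 copies of ATTTA, which share a base in FOS, and each hold the nonamer TTATTTATT 1 time, whereas the other 5 members have no match to it. Over the whole 3′UTR of the counted transcript in GENCODE, ATTTA occurred 5 times in FOS, 3 times in FOSB, 1 time in FOSL1, 9 times in FOSL2, 3 times in JUN, 2 times in JUNB and 1 time in JUND. Per kb, FOS had 6.18 copies, a density at percentile 94.9 of counted mRNAs, followed by JUNB with 3.98 at percentile 85.1. The other 5 members lay between 1.19 per kb in FOSL1 and 2.33 in JUN, on both sides of the median mRNA with 1.39. Among 17532 counted mRNAs with a 3′UTR, 65.9% held ATTTA and 7.8% held TTATTTATT on the sense strand. The 709 tested mRNAs with TTATTTATT had a median log2 RNA-seq/PRO-seq ratio of -0.59 against the median mRNA and the 7462 without it 0.07, given without a test. These are matches of letters in a sequence and not sites of decay.

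RefSeq promoter sequences (GRCh38.p14, from 250 bases before to 50 bases after the gene start) were held for 6 of the 7 members. FOSL1 had no entry. FOSB is shown because it had the lowest PRO-seq level of these 6, and JUND as 1 of the 3 JUN genes, which had the highest and could not be ranked among themselves. In FOSB (chr19:45467746-45468045, plus strand) capitals mark TATAAA and GGGCGG, and in JUND (chr19:18281573-18281872, minus strand) they mark CCAAT, TGACGTCA and GGGCGG or its reverse complement, 5′ to 3′ on the gene's strand:
FOSB: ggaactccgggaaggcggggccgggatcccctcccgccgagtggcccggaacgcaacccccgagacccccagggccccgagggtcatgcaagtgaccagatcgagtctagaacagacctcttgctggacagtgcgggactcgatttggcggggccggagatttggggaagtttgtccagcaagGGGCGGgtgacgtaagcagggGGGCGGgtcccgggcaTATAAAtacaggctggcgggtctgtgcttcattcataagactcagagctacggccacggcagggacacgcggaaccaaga
JUND: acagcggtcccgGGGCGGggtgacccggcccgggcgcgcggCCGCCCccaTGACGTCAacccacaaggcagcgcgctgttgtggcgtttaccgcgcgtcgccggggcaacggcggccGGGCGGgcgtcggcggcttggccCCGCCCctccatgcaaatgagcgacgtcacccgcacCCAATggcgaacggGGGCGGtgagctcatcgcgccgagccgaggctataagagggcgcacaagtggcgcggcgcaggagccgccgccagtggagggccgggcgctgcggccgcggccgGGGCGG
FOSB has TATAAA beginning 30 bases before its start and 2 copies of GGGCGG, the core of the SP1 motif. JUND has 6 copies of GGGCGG and the cAMP response element TGACGTCA, and no TATAAA. Both strands were searched for all motifs, and none of these motifs contains another. TATAAA was also present in FOS and JUNB, 33 and 31 bases before the start, and was found in 11.53% of 35116 promoters. CCAAT occurred in JUN, JUNB and JUND and in 34.61% of promoters, and GGGCGG in all 6 members but JUNB and in 44.95%. TGACTCA occurred only in FOSL2 among the 6 (4.95% of promoters), TGACGTCA only in JUND (1.85%), and the CArG box bound by SRF in none (1.29%). The windows are short, and a motif that was not found may lie outside them.

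The JUN genes carried most of the AP-1 RNA. Levels are given in TPM, that is, counts divided by exon length for RNA-seq, or by the TU length left for PRO-seq, and scaled to the sum over all TUs of the library. A TPM value is therefore a share of its own assay, and a PRO-seq value above an RNA-seq value is a difference relative to other TUs. JUND, the member with the highest RNA level, had 52.4, 61.4, 52.0 and 63.1 TPM in RNA-seq replicates 1 to 4, a mean of 57.2 ± 5.86 (SD, n = 4). Its PRO-seq level was 371 and 327 TPM. These RNA-seq values stood above those of all other members in every library. JUNB had 31.2, 29.8, 31.6 and 35.0 TPM in RNA-seq (31.9 ± 2.20, SD, n = 4). In PRO-seq it had 382 and 256 TPM, the widest gap between the PRO-seq libraries in the JUN genes. Those values rest on 82 and 56 counts, with exact 95% Poisson intervals of 65.2 to 101.8 and 42.3 to 72.7 that cover counting error only and overlap. JUN, whose product is the strongest activator of the JUN family, had 19.6, 19.3, 21.4 and 24.1 TPM in RNA-seq (21.1 ± 2.20, SD, n = 4). Its PRO-seq level was 271 and 301 TPM.

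FOSL1, which encodes FRA-1, had the highest PRO-seq level of the members. Its PRO-seq level was 496 and 544 TPM, from 946 and 1056 counts, rank 115 of the 14965 mRNAs with counts in both assays. In RNA-seq, FOSL1 had 10.8, 13.2, 9.12 and 15.9 TPM (12.3 ± 2.94, SD, n = 4), near the middle of mRNAs at percentile 54.3. Replicates 2 and 4 were the higher ones here. FOS showed the same separation at a lower level. It had 130 and 120 TPM in PRO-seq, at percentile 92.7, and 1.71, 1.39, 1.46 and 0.634 TPM in RNA-seq (1.30 ± 0.464, SD, n = 4), at percentile 33.8. The RNA-seq values of FOS rest on 14, 12, 8 and 4 counts. The lowest of these has an exact 95% Poisson interval of 1.1 to 10.2 counts, which overlaps that of the highest, 7.7 to 23.5.

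FOSL2, which encodes FRA-2, had a low PRO-seq level. It had 2.47, 2.42, 2.50 and 2.52 TPM in RNA-seq (2.48 ± 0.0404, SD, n = 4) and 14.3 and 15.5 TPM in PRO-seq. The RNA-seq values rest on 56, 58, 38 and 44 counts. The first has an exact 95% Poisson interval of 42.3 to 72.7 counts, so the small SD is not read as a trait of the gene. Both levels of FOSL2 lay below the median mRNA, at percentile 37.8 in RNA-seq and percentile 44.7 in PRO-seq. FOSB was the lowest member in both assays. Its RNA-seq level was 0.140, 0.199, 0.418 and 0.455 TPM (0.303 ± 0.157, SD, n = 4), from 2 to 5 counts in a library. In PRO-seq it had 13.1 and 9.82 TPM, from 21 and 16 counts. At this depth the order of its libraries cannot be read.

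The members fell in a different order in each assay. In RNA-seq the order was JUND, JUNB, JUN, FOSL1, FOSL2, FOS and FOSB, and the ranges of neighbours did not overlap at any step. All 4 libraries kept each step. In PRO-seq FOSL1 came first, and JUND, JUNB and JUN followed with ranges that overlapped and an order that held in 1 of the 2 libraries, so these 3 could not be ranked. FOS, FOSL2 and FOSB came next without overlap. With 500 bp in place of 1000 bp taken off, JUN, JUND and JUNB again overlapped between FOSL1 and FOS. The order of levels depends on length. Counts scaled to library totals without length placed JUN above JUNB in RNA-seq, with overlapping ranges. In PRO-seq they gave the order FOSL2, JUND, FOS and JUNB, in which the range of each overlapped that of the next. Without length, FOSL1 over FOSL2 and FOS over FOSB in RNA-seq also overlapped, and each held in 3 of 4 libraries. In RNA-seq replicate 4, FOS had 4 counts and FOSB 5.

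As a share of the family's summed TPM, the 3 JUN genes made up 86.2% to 88.6% in the RNA-seq libraries and 56.2% to 61.0% in the PRO-seq libraries. The FOS genes made up 11.4% to 13.8% of the RNA-seq TPM and 39.0% to 43.8% of the PRO-seq TPM. The ranges of the assays did not overlap. FOSL1 alone took 29.6% to 34.6% of the PRO-seq TPM and 7.70% to 11.2% of the RNA-seq TPM. FOS took 7.63% to 7.77% and 0.448% to 1.45%, respectively. JUND moved the other way, from 20.8% to 22.1% of the PRO-seq TPM to 43.9% to 48.1% of the RNA-seq TPM. So did JUNB, from 16.3% to 22.8% to 23.4% to 26.7%, and FOSL2, from 0.853% to 0.985% to 1.78% to 2.11%. The share of JUN overlapped between the assays. These shares depend on one another, and no test was made of them.

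**Figure D1:**
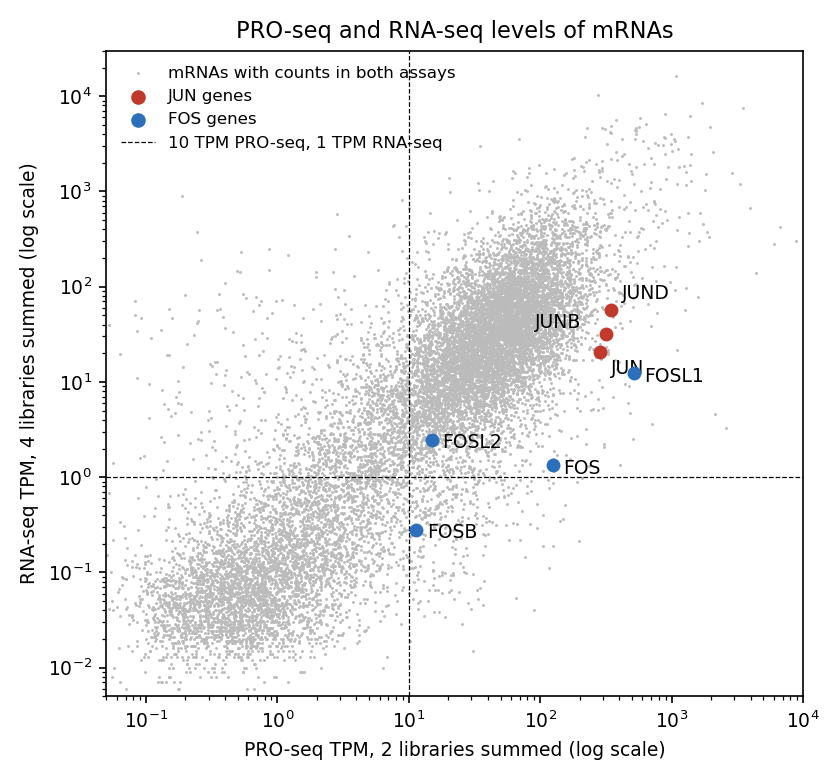
Each grey point is 1 of the 14965 mRNAs with counts in both assays, by its PRO-seq level (x) and RNA-seq level (y) in TPM on log axes, with the JUN genes in red, the FOS genes in blue and the thresholds of 10 and 1 TPM as dashed lines. FOS and FOSL1 lie at the lower right edge of the cloud, FOSL2 lies closest to its middle, and FOSB lies under the RNA-seq threshold with a pooled level of 0.281 TPM.

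The ratio of RNA-seq to PRO-seq was then compared with that of the median mRNA. For this, edgeR's quasi-likelihood test was run on the counts of 9925 TUs with a PRO-seq level above 10 TPM and an RNA-seq level above 1 TPM, with lengths as offsets, the log2 ratio centred on the median of 8733 mRNAs, and Benjamini-Hochberg adjustment over all TUs. All 6 members tested fell below the median mRNA at an adjusted p under 0.05. Such calls were common, as 50.0% of the TUs tested were called below and 40.4% above, so the call says little by itself and the size of the difference and its rank are given for each gene.

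FOS had the lowest ratio of the family, with a log2 ratio of -5.92 (SE 0.241, adjusted p = 1.9e-20), 60.6-fold below the median mRNA. Of the 8733 mRNAs past the TPM thresholds, 14 had a lower ratio. FOSL1 followed at -4.76 (SE 0.0920, adjusted p = 6.5e-29), 27.2-fold below, with 47 mRNAs lower. In the 3′UTR sequences described above, FOS holds 5 copies of ATTTA in 809 bp (6.18 per kb) and FOSL1 holds 1 in 840 bp (1.19 per kb). JUN had a log2 ratio of -3.14 (SE 0.121, adjusted p = 4.5e-21), 8.80-fold below the median, and 298 mRNAs were lower. JUNB stood at -2.69 (SE 0.178, adjusted p = 5.8e-15), 6.45-fold below, with 465 lower. JUND at -1.97 (SE 0.152, adjusted p = 2.6e-13) and FOSL2 at -1.95 (SE 0.155, adjusted p = 4.9e-13) were 3.91-fold and 3.88-fold below, at percentiles 11.3 and 11.4 of mRNAs. FOSL2 holds 9 copies of ATTTA in a 3′UTR of 4867 bp (1.85 per kb) and JUND 1 in 750 bp (1.33 per kb). Whether ATTTA goes with the ratio was not tested. The median of the 6 members was -2.91, against -0.225 over all TUs tested.

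FOSB lay outside the TPM thresholds and is given from a fit without them, over the 20624 TUs with 1 or more counts per assay, in which 37.4% of TUs were called below and 31.7% above the median mRNA. There it had a log2 ratio of -4.08 (SE 0.498, adjusted p = 7.4e-16), 16.9-fold below the median, with 610 of 14965 mRNAs lower. The RNA-seq side of that value is 14 counts in all. In this setting all 7 members were called below. FOS was at -5.29, FOSL1 at -4.13, JUN at -2.51, JUNB at -2.06, JUND at -1.34 and FOSL2 at -1.33, since the wider set of mRNAs has another median, and each of these values is 0.63 above the one given earlier. The RNA-seq threshold leaves out mRNAs with little RNA, and ranks were less extreme without it. Among the 14965 mRNAs, 209 were lower than FOS, 577 than FOSL1, 2069 than JUN and 2693 than JUNB. JUND and FOSL2, with 4015 and 4043 lower, stood at percentiles 26.8 and 27.0.

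The JUN genes were also set against mRNAs of the same structure. Whether the lack of introns shapes their ratios was not tested. The 127 single-exon mRNAs tested had a median log2 ratio of -1.68, and the 8606 with introns had 0.02. Among the single-exon mRNAs, JUN stood at percentile 15, JUNB at percentile 18.9 and JUND at percentile 36.2. Centred on the single-exon median, JUN was at -1.46 (adjusted p = 1.3e-13), JUNB at -1.01 (adjusted p = 7.4e-07) and JUND at -0.29 (adjusted p = 0.043). FOSL2, which has introns, was at -0.28 against that median and was no longer called (adjusted p = 0.081). With that reference 1620 of all TUs were called below and 7398 above. Among mRNAs with introns, FOS and FOSL1 stood at percentiles 0.1 and 0.5 and FOSL2 at percentile 11.0. The length taken off for PRO-seq counting matters most for the shortest genes. With 500 bp taken off in all, JUNB moved to -2.06 and JUND to -1.40, while JUN was at -2.90, FOS at -5.70, FOSL1 at -4.72 and FOSL2 at -1.98, and all stayed below the median at an adjusted p under 0.05. Without length offsets the JUN genes turned to above the median, with 0.60 for JUN, 1.65 for JUNB and 2.29 for JUND.

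Members were also compared with each other within libraries, for the 6 neighbours in the order of the ratio. The mean log2 TPM ratio was -6.68 in FOS, -5.44 in FOSL1, -5.39 in FOSB, -3.76 in JUN, -3.30 in JUNB, -2.61 in JUND and -2.59 in FOSL2. FOS lay below FOSL1 by 1.25, and all 8 ways of setting 1 RNA-seq against 1 PRO-seq library kept this order. The same held for FOSB below JUN by 1.63, for JUN below JUNB by 0.469 and for JUNB below JUND by 0.686. In each of these 4 pairs the exact two-sided permutation test over libraries gave p = 0.1333, the smallest value that 4 against 2 libraries allow, and an adjusted p of 0.2 over 6 pairs. FOSL1 and FOSB differed by 0.044, with differences of -1.03 to 1.34 over the combinations and the order kept in 4 of 8 (exact permutation p = 1). JUND and FOSL2 differed by 0.022, between -0.264 and 0.313 over the combinations, with the order kept in 5 of 8 (exact permutation p = 0.6667, adjusted 0.8). For these pairs the order could not be told at this spread.

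The spread over libraries was itself uneven. The SD of the log2 ratio was 0.084 in FOSL2, 0.182 in JUN and 0.196 in JUND, but 0.646 in FOS and 0.878 in FOSB, the members with the fewest RNA-seq counts. RNA-seq replicates 1 and 3 resembled each other, as did 2 and 4, with a chi-square per degree of freedom of 1.11 and 1.12 over TUs with 20 or more counts, against 1.74 to 2.11 for the other 4 pairs. The labels name no batch. FOSL1 averaged 9.97 TPM in replicates 1 and 3 and 14.5 TPM in replicates 2 and 4, and JUND 52.2 and 62.3 TPM. FOS went the other way, with 1.58 and 1.01 TPM. In these 3 genes the pairs did not overlap, and in the other 4 they did. With each pair summed to 1 library, FOSL1 stayed at -4.77, FOS at -5.92 and JUND at -1.97, each below the median mRNA at an adjusted p under 0.05.

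The mRNAs nearest to each member in level were found by Euclidean distance over the log2 TPM of the 6 libraries, among 8722 mRNAs. FOS was nearest to PIP5KL1 (distance 1.02) and VRK1 (1.02), FOSL1 to CSKMT (1.12) and TMEM81 (1.13), and FOSL2 to LONRF2 (0.181) and GCNA (0.249). JUN was nearest to the nucleotide sugar transporter gene SLC35A2 (0.372) and the nucleoside transporter gene SLC29A2 (0.407), JUNB to RHOG (0.425) and ZNF3 (0.626), and JUND to ZMYND8 (0.340). The neighbours of FOS and FOSL1 were farther away than those of the other members. No other AP-1 gene was among the neighbours.

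Around the family, other genes of its pathway were read by lists. The counts are to be read against the shares over all TUs, 50.0% below and 40.4% above with the TPM thresholds and 37.4% below and 31.7% above without them. Of 14 basic leucine zipper partners, 6 were tested, of which 4 were below, 1 was above and 1 was not called, with a median log2 ratio of -0.72. Without the TPM thresholds, 4 of 13 were below and 6 above, and the median turned to 0.13. NRL (-2.81) and BATF2 (-1.20) were lowest. MAFK, a small MAF protein that pairs with the erythroid factor NFE2, was highest at 0.40, and ATF2, a partner of JUN at cAMP response elements, followed at -0.03 without a call (adjusted p = 0.57).

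Of the kinases and serum response factors upstream of AP-1, 22 of 23 were found and 20 tested. They divided into 13 below and 7 above, with a median of -0.45. RPS6KA5, a kinase of histone H3 and CREB, had -3.41, and MAPK7, the ERK5 kinase, -2.47. At the other end MAP2K1, which activates ERK1 and ERK2, had 1.59 and RPS6KA1, a kinase downstream of ERK, had 1.04. With the TPM thresholds dropped, 8 of 21 were below and 9 above, and the median turned to 0.11.

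The regulators of FOS and JUN RNA or protein showed the widest range of the 5 lists. Of 12 found, 11 were tested, with 6 below and 5 above and a median of -1.11. ZFP36, which binds AU-rich elements and speeds decay of its targets, had a log2 ratio of -6.01 from 2.23 TPM in RNA-seq and 223 TPM in PRO-seq, within the SE of the value of FOS. Its relative ZFP36L1 had -5.49, from 27 RNA-seq counts. How much of the canonical exons the counted transcripts hold was not examined for the genes of the lists. COPS5, a subunit of the COP9 signalosome that was first described as a JUN coactivator, was highest at 3.48.

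Textbook targets of AP-1 were tested for 7 of 16, with 5 below and 2 above and a median of -1.35. The cytokine gene IL6 (-2.76) and the cyclin gene CCND1 (-1.81) were lowest, while the intermediate filament gene VIM (2.51) and the protease inhibitor gene TIMP1 (2.19) were highest. IL2 and MMP3 had no counts in either assay. Other immediate early genes were found for 9 of 10 and tested for 5, and all 5 were below, with a median of -2.00. EGR1 had -8.99, from 3.28 TPM in RNA-seq and 2585 TPM in PRO-seq, and NR4A2 had -4.97. IER5 (-0.76) and IER2 (-0.97) were nearest to the median mRNA.

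The cell type and the libraries were checked. Total counts on TUs were 5732780 to 9002746 in RNA-seq and 6993816 and 7245632 in PRO-seq. Of 12 K562 markers 11 were found, with a summed RNA-seq level of 12080 to 12960 TPM, including GATA1 at 155 TPM and the fetal globin genes HBG1 and HBG2, whose near-identical copies can share reads. Of 8 markers of other cell types 6 were found, with a summed RNA-seq level of 118 to 124 TPM. Nearly all of it was EPCAM at 120 TPM, and the other 5, CD3E, MS4A1, COL1A1, KRT5 and ALB, were at 0.483 TPM or less. EPCAM also had 251 PRO-seq counts. Whether its RNA came from the K562 cells or from others was not tested.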

How the data were processed

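The deposited values were raw counts of reads per annotated transcript, 1 file for each of 4 total RNA-seq and 2 PRO-seq libraries of K562 cells. According to the submitters' processing notes and the study's methods, the authors trimmed reads with cutadapt, aligned them with HISAT2 to GRCh38 and counted them with HTSeq, on exons for RNA-seq and on the body of the TU without its ends for PRO-seq. No versions and no strand setting were found in the labels or methods. The methods state that 500 bp were left out at each end for PRO-seq, so 1000 bp were taken off each TU; 500 bp in all was an alternative.

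Identifiers were joined to GENCODE on GRCh37, where 37339 of 42371 transcripts (88.1%) matched, so lengths come from another build than the counts; unmatched transcripts took 2.8% to 3.69% of the counts. The 84 TUs of 1000 bp or less were left out. Rows that name no TU (66.46% to 68.56% of RNA-seq and 86.53% to 88.56% of PRO-seq reads) and 801 rows of 0 counts stayed out of library sizes.

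TPM were computed from the counts. The ratio was tested with edgeR 4.0.16 (TMM, quasi-likelihood, length offsets, two-sided) over all 6 libraries and centred on the median mRNA, for TUs over 10 TPM (PRO-seq) and over 1 TPM (RNA-seq), as in the study's methods. DESeq2 1.42.0, other filters, lengths, references and left-out libraries were alternatives. Single comparisons used exact permutation tests (scipy 1.17.1). In simulated data with 200 of 9925 TUs changed by a log2 of 1, the procedure recovered 97.5% of them, with 9 false calls. That simulation gave all TUs 1 common dispersion and changed few of them, unlike the real data. It therefore does not give the error rate here. Members and gene lists were chosen with earlier results of these data known. Named were the 7 members, the 2 nearest mRNAs of each member tested, and the 2 highest and 2 lowest genes of each list, of which a few are not reported here; genes named in the check of markers or as having no counts were chosen after their values were seen. Depth limits the precision of FOS and FOSB, and intervals of counts cover counting error only.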

Additional observations from a re-analysis of the deposited data

How the results depend on the processing

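FOS and FOSL1 stayed below the median mRNA at an adjusted p under 0.05 (edgeR, or DESeq2 where named) in every alternative that gave a value, between -6.11 and -2.91 in FOS over 17 alternatives and between -4.89 and -3.09 in FOSL1 over 18. FOSB stayed below in its 10 alternatives, between -4.80 and -3.83. FOSL2 did so in 16 of 17, and against the median single-exon mRNA it had -0.28 (adjusted p = 0.081). JUN, JUNB and JUND did so in 17 of 18. Without length offsets they turned to 0.60, 1.65 and 2.29, with 3 members called below and 3 above; by its construction this setting compares counts over regions of unequal length. Leaving out a library ended no call. JUNB was at -2.36 without PRO-seq replicate 1 and -2.97 without replicate 2, and FOS between -6.11 and -5.72 when 1 RNA-seq library was left out. Over all TUs, 4958 were called below and 4008 above. The counts were 7714 and 6542 with at least 1 summed count in each assay, 1620 and 7398 against the single-exon median, and 2898 and 2138 when a difference of over 2-fold was tested. Thresholds of 20 and 2 TPM left no value for FOS, FOSL2 and FOSB. Replicate numbers 1 and 2 occur in both assays. The difference of replicates 1 and 2 in RNA-seq had a correlation of -0.0174 with that in PRO-seq over 9837 TUs. This 1 value showed no pairing and cannot exclude one. With the replicate block, FOS was at -5.70, FOSL1 at -4.80, FOSL2 at -1.97, JUN at -3.24, JUNB at -2.74 and JUND at -1.98, and 4857 TUs were called below and 3915 above. FOSB had -4.80 with the replicate block and at least 1 summed count. Depth limits FOS and FOSB most, with 38 and 14 RNA-seq counts in all.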
